A study of Mus musculus with 34 samples.

Results

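Binding of HDAC3, PROX1 and HNF4α in mouse liver was examined at 9 genes that set how much glucose the liver makes, burns, stores and exchanges with the blood: *Pck1*, *G6pc*, *Fbp1*, *Pcx*, *Ppargc1a*, *Pklr*, *Slc2a2*, *Gys2* and *Pygl*. They are 9 of 22367 protein-coding genes of the mm9 annotation and were listed by their role in the pathway, with earlier results of these data known. A peak was given to a gene when its centre lay between 50 kb upstream of the first annotated base of the gene and 2 kb past its end. HDAC3 and PROX1 peaks with identical coordinates in both lists were classed as co-bound and the others as PROX1-only or HDAC3-only. A peak was counted as bound by HNF4α when a single HNF4α peak covered at least 50% of it, and a co-bound peak with HNF4α is called triply bound below. The 9 windows held 89 of the 28631 distinct HDAC3 or PROX1 peaks and 62 of the 24253 HNF4α peaks.

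The lists came from chromatin immunoprecipitation and sequencing of whole livers of 10-week-old male C57B/6 mice, taken at zeitgeber time 10, which is 10 h after lights on. HDAC3 and PROX1 were each profiled in 3 control livers, for which the labels give no genotype beyond "Control". HNF4α was profiled in 2 livers of *Hnf4α* fl/fl mice given the control virus AAV8 TBG Egfp in place of Cre, so the floxed allele was intact. TBG is a promoter active in hepatocytes, and the livers also hold other cell types. The HNF4α list and the other lists therefore come from different mice. The authors pooled the libraries of each factor before calling peaks, so no spread between livers can be given, and all values below describe 1 list per factor. The depth of the libraries is unknown from the lists, and a site that is not in a list is a site not called under the authors' limits, not a site shown to be free of the factor. The peaks carry no expression values, so the tissue label was not tested against marker genes.

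In fasting, the liver turns lactate, alanine and glycerol into glucose by gluconeogenesis, and it releases glucose from glycogen. After a meal it runs the opposite programme, with glycolysis of glucose to pyruvate and storage as glycogen. HNF4α is a nuclear receptor that keeps hepatocyte genes active, PROX1 is a homeobox protein that can act as a corepressor of nuclear receptors, and HDAC3 is the histone deacetylase of the NCoR corepressor complex.

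All 9 genes had at least 1 co-bound peak, against 38.4% of all protein-coding genes by the same window. *Pklr* had 0 co-bound peaks with a window from 10 kb upstream or with peaks assigned to the nearest TSS (transcription start site), which left 8 of the 9. A triply bound peak was present at 8 of the 9, with *Pklr* as the exception, against 31.1% of all genes. HNF4α peaks were present at all 9, against 49.7%. PROX1-only peaks occurred at 5 genes, *Pck1*, *Fbp1*, *Pcx*, *Slc2a2* and *Pygl*, against 25.2%, and HDAC3-only peaks at 3 genes, *Pcx*, *Ppargc1a* and *Pygl*, against 7.4%. The background holds all protein-coding genes, whether or not liver expresses them, and the median window was 82.5 kb for the 9 genes and 67.4 kb for all genes.

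The 9 genes differed widely in how many peaks they held. *Pcx* had the most co-bound peaks with 15, followed by *G6pc* with 11 and *Pck1* and *Slc2a2* with 8 each. *Fbp1* and *Ppargc1a* had 7 each, *Gys2* and *Pygl* 5 each, and *Pklr* 1. The median was 7, against 0 over all genes. Because long genes have long windows, the order changed when counts were divided by window length. *G6pc* was then first with 17.6 co-bound peaks per 100 kb and *Pck1* second with 13.7. *Slc2a2*, *Fbp1* and *Pcx* lay close together at 9.70, 9.27 and 9.19. *Pygl* had 5.40, *Gys2* 4.88, *Ppargc1a* 4.23 and *Pklr* 1.60 per 100 kb. The density of *G6pc* exceeded that of 99.9% of all protein-coding genes and that of *Pklr* exceeded that of 72.7%. The order of the first 2 genes depended on peaks that stand close together. With peaks closer than 1 kb merged, *G6pc* and *Pck1* had 7 co-bound peaks each. *Pck1*, with a window of 58.2 kb against 62.3 kb, was then the denser of the 2.

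**Figure D1:**
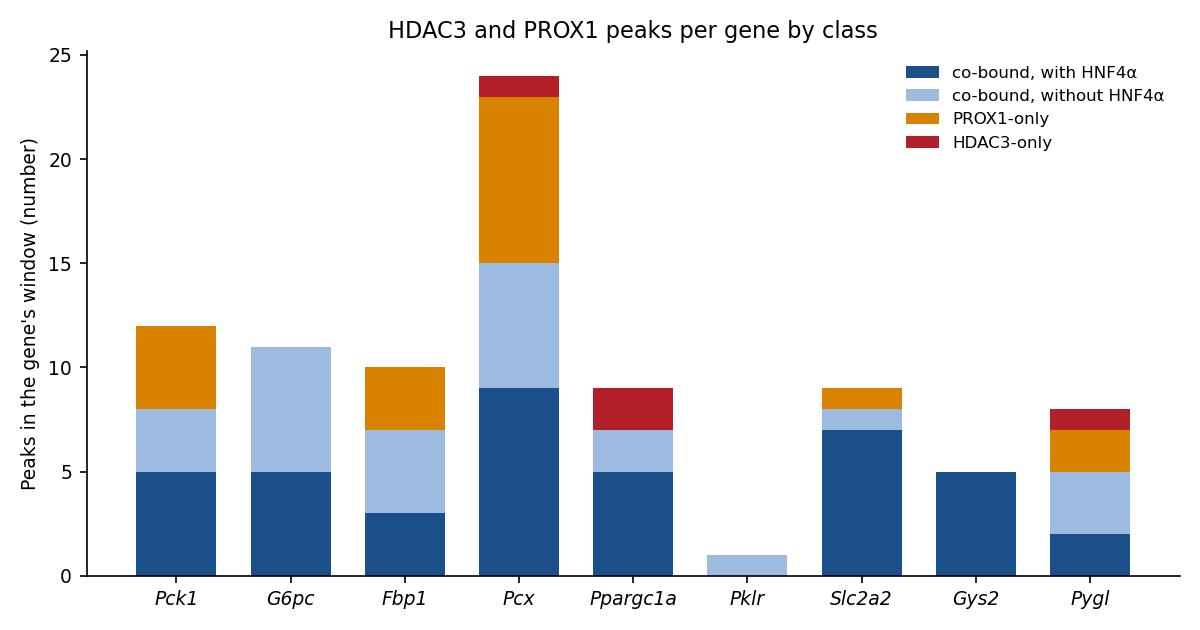
Number of HDAC3 and PROX1 peaks in the window of each gene, stacked by class: co-bound with HNF4α, co-bound without HNF4α, PROX1-only and HDAC3-only. *Pcx* had 24 peaks in all, *Pklr* had 1, and the 5 peaks of *Gys2* were all triply bound.

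Together the 9 windows held 67 co-bound, 18 PROX1-only and 4 HDAC3-only peaks. Of the 67 co-bound peaks 41 were bound by HNF4α, which is 61.2% with a 95% Wilson interval of 49.2 to 72.0%, and the share over the whole list was 61.3%. The number of co-bound peaks per gene was thus above the median of all genes, while the HNF4α share of those peaks was close to that of the list. The intervals cover counting error only, and neighbouring peaks are not independent. HNF4α also bound 9 of the 18 PROX1-only peaks and 1 of the 4 HDAC3-only peaks, against 36.7% and 14.0% over the lists. Of the 62 HNF4α peaks, 7 touched no HDAC3 or PROX1 peak, which is 11.3% (5.58 to 21.5%), whereas 31.4% of the whole HNF4α list touched none. Those 7 lay at *Pcx*, *Ppargc1a*, *Pklr* and *Slc2a2*. Whether this share differs from that of other windows as rich in HDAC3 and PROX1 peaks was not tested.

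**Figure D2:**
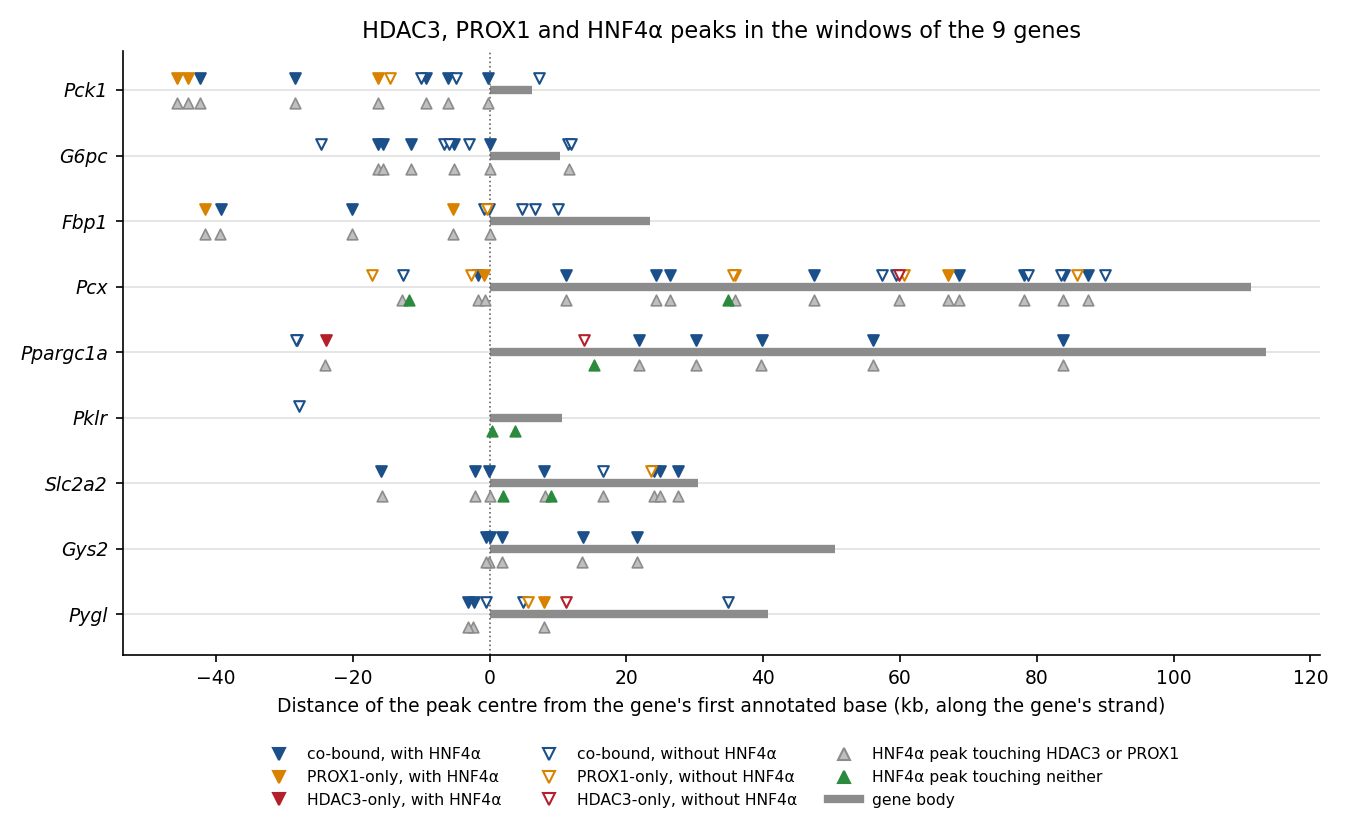
Position of each peak along the 9 genes, as the distance of its centre in kb from the first annotated base on the strand of the gene, with HDAC3 and PROX1 peaks above each line and HNF4α peaks below it. Filled upper triangles were bound by HNF4α. Peaks of *Pck1* and *G6pc* lay mainly upstream, those of *Pcx*, *Ppargc1a* and *Gys2* mainly inside the gene, and *Pklr* had HNF4α peaks without any HDAC3 or PROX1 peak near its start.

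By location, 11 of the 67 co-bound peaks had their centre at a promoter, here up to 1 kb from a coding TSS, which is 16.4% (9.42 to 27.1%), against 7.91% of the list. All 9 windows include a TSS by construction, which the list as a whole does not. One of the 11 was at the promoter of a neighbour. A further 28 lay in introns, 26 between genes and 2 in coding exons. By gene, 7 of the 9 had a co-bound peak within 1 kb of a coding TSS of their own, against 6.25% of all genes. The exceptions were *Ppargc1a* and *Pklr*, which differed from the other 7 and from each other at their promoters. *Ppargc1a* had an HDAC3-only peak within 1 kb of a TSS, which 1.14% of all genes had. *Pklr* had an HNF4α peak and no HDAC3 or PROX1 peak within 1 kb of a TSS, which 5.35% of all genes had.

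**Figure D3:**
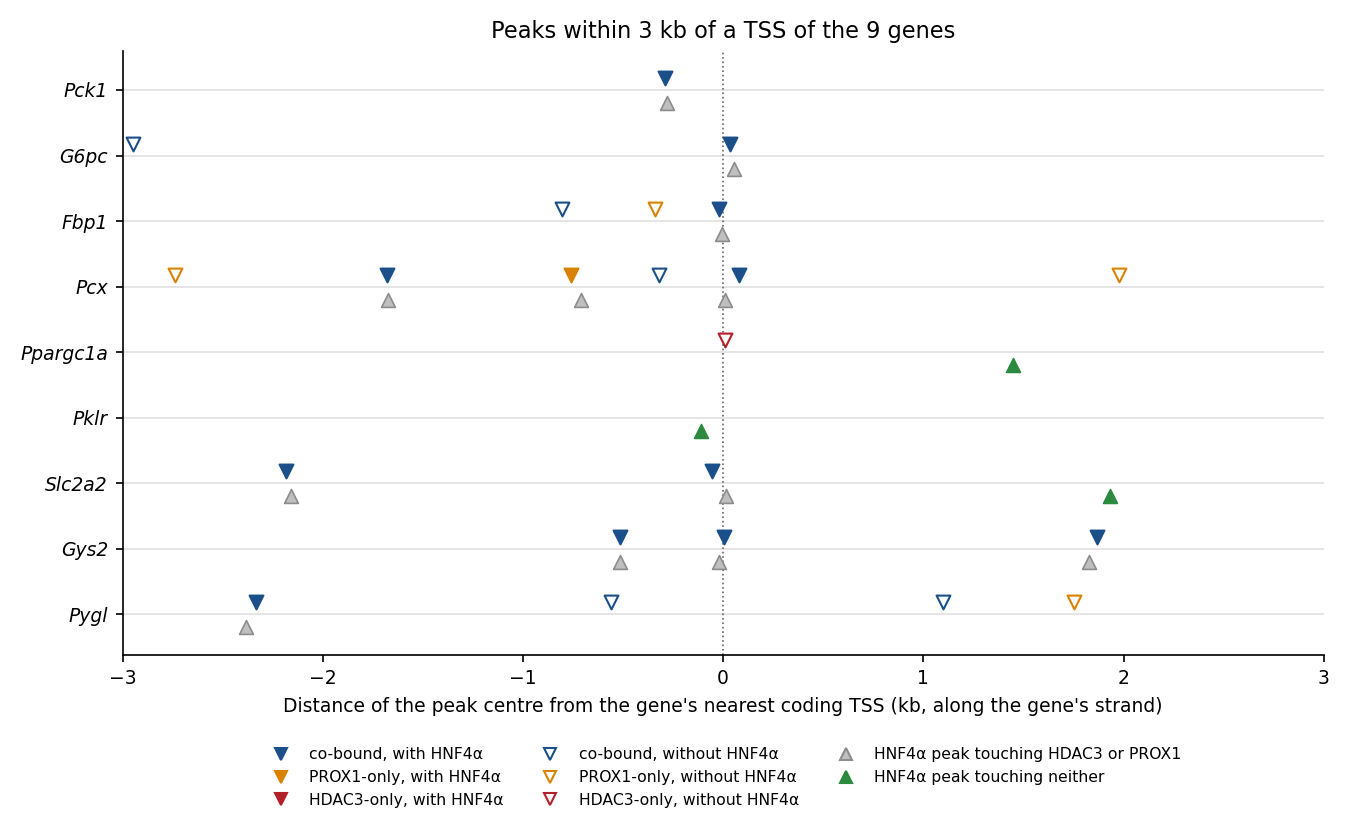
Peaks within 3 kb of a coding TSS of each gene, as the distance in kb of the peak centre from the nearest coding TSS of the gene, along its strand. Within 1 kb, *Pck1*, *G6pc*, *Fbp1*, *Pcx*, *Slc2a2* and *Gys2* had a co-bound peak with HNF4α, *Pygl* a co-bound peak without it, *Ppargc1a* an HDAC3-only peak and *Pklr* an HNF4α peak alone, while *Pygl* had a triply bound peak farther out, at -2334 bp, and *Ppargc1a* an HNF4α peak at 1448 bp.

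*Pck1* encodes the cytosolic phosphoenolpyruvate carboxykinase, which commits carbon to gluconeogenesis. The gene (ENSMUSG00000027513.5) lies at chr2:172978549-172984774 on the plus strand of mm9, and its window held 8 co-bound and 4 PROX1-only peaks. Of the 8 co-bound peaks 5 were triply bound, and none lay inside the gene: 7 were upstream and 1 past the end. The peak at the promoter was centred at -292 bp, in the region through which fasting hormones are known to raise *Pck1* transcription. HNF4α covered 84.0% of it with a score of 113.1, higher than 98.5% of the HNF4α list. The score is the value HOMER gave each peak, its scale is not stated for the list, and it is used here only to rank peaks within the list, whose median was 41.9. The strongest HNF4α peak of all 9 genes lay farther out, on a triply bound peak at -28.5 kb, with a score of 125.3, higher than 99.6% of the list. This distal peak was nearest to the TSS of *Ctcfl*, a testis paralogue of CTCF, so its assignment to *Pck1* rests on the window. The other 3 triply bound peaks scored 28.3 to 52.3 and lay at -42314, -9247 and -6113 bp. The 4 PROX1-only peaks lay between -45675 and -14545 bp, and 3 of them were bound by HNF4α with scores of 21.2 to 73.0. The 3 peaks farthest upstream, 2 PROX1-only and 1 triply bound, were in introns of *Ctcfl*.

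The DNA under the 2 strong *Pck1* peaks is shown because both hold the consensus that HNF4α binds, a direct repeat of 2 half-sites with 1 base between them (DR1). Capitals mark matches to the 13-letter consensus with at most 2 mismatches, on either strand, and both stretches are mm9 plus strand, which is the strand of the gene.
Pck1 promoter peak, chr2:172978157-172978356: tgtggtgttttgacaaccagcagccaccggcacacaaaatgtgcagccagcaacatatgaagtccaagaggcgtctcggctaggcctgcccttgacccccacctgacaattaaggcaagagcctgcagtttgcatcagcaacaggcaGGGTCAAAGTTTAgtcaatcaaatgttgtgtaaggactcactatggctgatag
Pck1 peak at -28.5 kb, chr2:172949940-172950139: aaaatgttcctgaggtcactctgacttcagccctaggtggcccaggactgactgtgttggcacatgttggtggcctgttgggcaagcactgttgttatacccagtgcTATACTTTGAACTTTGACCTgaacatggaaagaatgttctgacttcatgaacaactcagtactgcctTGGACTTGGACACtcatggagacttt
In the promoter the single match had 1 mismatch. In the distal peak there were 3 matches, 2 of which overlapped, and 1 had no mismatch. A match without mismatch was found in 0.629% of all co-bound windows of 200 bp, and this was the single such window among the 67 of the 9 genes.

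*G6pc* encodes the catalytic subunit of glucose-6-phosphatase, which releases free glucose. The gene (ENSMUSG00000078650.2) lies at chr11:101228875-101239217 on the plus strand. Its 11 peaks were all co-bound, with no PROX1-only and no HDAC3-only peak, and 5 were triply bound. The peak at the promoter was centred at 32 bp past the TSS with an HNF4α score of 106.5, the highest at this gene. The others were at -11.5 kb with 87.2, at -5131 bp with 82.5, at -15.6 kb with 53.7 and at -16.4 kb with 41.0. The 5 scores had a median of 82.5, the highest median among the genes with 3 or more triply bound peaks. Between -6635 and -2950 bp stood 4 co-bound peaks, of which the one at -5131 bp was the only one bound by HNF4α. One peak past the end of the gene was touched by HNF4α over 19.5% of its length and so was not counted.

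The stretch just before the TSS of *G6pc* is shown because its 150 bases hold a match to another hepatocyte factor. The peak, chr11:101228807-101229006, covers only the part of the stretch next to the TSS. The marked match lies at the edge of the peak. Capitals mark overlapping matches, on both strands, to the binding consensus of HNF1, searched by name with at most 2 mismatches. The stretch is mm9 plus strand and ends at the base before the TSS.
G6pc promoter, chr11:101228725-101228874: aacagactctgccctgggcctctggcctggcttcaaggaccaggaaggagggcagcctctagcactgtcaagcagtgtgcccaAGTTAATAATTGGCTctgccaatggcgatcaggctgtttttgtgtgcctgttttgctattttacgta
The HNF1 consensus was found in 1 of the 67 co-bound windows of the 9 genes, which is this one, and in 4.30% of all co-bound windows. It was also in 1 of the 18 PROX1-only windows, at *Slc2a2*, against 3.98% of the list. Both matches at *G6pc* had 2 mismatches. With at most 1 mismatch the consensus was in 0 of the 67, against 0.604% of all co-bound windows. The promoter stretch held no match to the HNF4α consensus. The peak held one beyond the TSS, AGTCCAAAGATCA at chr11:101228954-101228966, with 1 mismatch.

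*Fbp1* encodes fructose-1,6-bisphosphatase, which catalyses the step opposed to phosphofructokinase. The gene (ENSMUSG00000069805.4) lies at chr13:62966113-62989642 on the minus strand, with 7 co-bound and 3 PROX1-only peaks. Within 1 kb of its first base stood 3 peaks of differing class. A triply bound peak was centred at -23 bp with a score of 47.6, a PROX1-only peak without HNF4α at -339 bp, and a co-bound peak without HNF4α at -804 bp. The highest HNF4α score at this gene, 94.7, belonged to a triply bound peak at -20.1 kb. The third triply bound peak, at -39.3 kb with 27.8, was nearest to the TSS of *2010111I01Rik*. Inside the gene were 3 co-bound peaks, none bound by HNF4α, and 2 of these were nearest to the annotated TSS of *Gm17367*.

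*Pcx* encodes pyruvate carboxylase, the mitochondrial enzyme that makes oxaloacetate from pyruvate. The gene (ENSMUSG00000024892.8) lies at chr19:4510472-4621752 on the plus strand and has a distal start and a proximal start, the latter at 83847 bp past the first. It had the most peaks of every class except HDAC3-only: 15 co-bound, of which 9 were triply bound, 8 PROX1-only and 1 HDAC3-only, with 16 HNF4α peaks. The 2 starts differed in what was bound. Within 1 kb of the distal start there was 1 peak, PROX1-only, at -760 bp, with an HNF4α score of 21.7. Within 1 kb of the proximal start there were 2 co-bound peaks, one at -319 bp without HNF4α and one at 78 bp past it with a score of 55.6. The strongest HNF4α peaks of the gene lay on intronic triply bound peaks between the 2 starts, with scores of 103.7 and 96.6 at -36388 and -5683 bp from the proximal start. The single HDAC3-only peak, at -24025 bp from the proximal start, was covered by HNF4α over 48.0%, just short of the limit, with a score of 61.7. One co-bound peak in the window lay at the promoter of the neighbour *2010003K11Rik*, as did an HNF4α peak without HDAC3 or PROX1 that scored 74.4.

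*Ppargc1a* encodes PGC-1α, the coactivator through which glucagon and fasting raise the gluconeogenic enzymes. The gene (ENSMUSG00000029167.7) lies at chr5:51845488-51958964 on the minus strand. Transcript Ppargc1a-001 starts 13804 bp inside the first annotated base, at 51945160. Its window held 7 co-bound peaks, 5 of them triply bound, no PROX1-only peak and 2 HDAC3-only peaks, the most HDAC3-only peaks of the 9 genes. One of these was centred at 9 bp past the start of Ppargc1a-001 and was not touched by HNF4α. The other lay between genes at -24.0 kb from the first base and was bound by HNF4α with a score of 28.7. The 5 triply bound peaks were all in introns, at 8094 bp or more past the start of Ppargc1a-001. The one nearest to that start had the highest score, 95.2, and the others scored 28.7 to 51.4, with 51.4 at 16417 bp. The 2 co-bound peaks without HNF4α stood side by side at -28092 and -28316 bp from the first base. An HNF4α peak without HDAC3 or PROX1, with a score of 36.3, lay 1448 bp past the start of Ppargc1a-001.

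The promoter of Ppargc1a-001 is shown because it is the one promoter of the 9 genes with HDAC3 and without a PROX1 peak. Capitals mark TGACGTCA, the element that CREB binds and through which cyclic AMP is known to raise transcription of this gene. The stretch is the minus strand of mm9 and ends at the base before the TSS. The HDAC3-only peak, chr5:51945051-51945250, covers only the part of the stretch next to the TSS. The marked element, chr5:51945237-51945244, lies inside the peak near its edge.
Ppargc1a-001 promoter, chr5:51945161-51945310: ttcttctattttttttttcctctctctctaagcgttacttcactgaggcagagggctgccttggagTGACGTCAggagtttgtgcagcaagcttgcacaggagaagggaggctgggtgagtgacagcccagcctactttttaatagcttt
TGACGTCA was searched in the 200 bp windows of all peaks. Of all co-bound windows 0.334% held it, of all PROX1-only windows 0.244% and of all HDAC3-only windows 0.911%. Among the 89 peaks of the 9 genes it was found in this one alone, so in none of the 67 co-bound windows.

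*Pklr* encodes the liver and red cell pyruvate kinase, the last step of glycolysis, which runs against gluconeogenesis. The gene (ENSMUSG00000041237.6) lies at chr3:88940064-88950706 on the plus strand. It is known to use separate promoters for the red cell and liver forms, and the annotation gives starts at 88940064, 88940494 and 88940501. It was the least bound of the 9 genes by HDAC3 and PROX1. Its single co-bound peak lay at -27.8 kb, was not touched by HNF4α and was nearest to the TSS of *Fdps*, an enzyme of sterol synthesis. From the start at 88940494, the nearest HDAC3-only peak was 66.3 kb downstream and the nearest PROX1-only peak was at -183.14 kb. HNF4α was called at its promoter, at -110 bp from the start at 88940494, with a score of 97.1, higher than 95.5% of the HNF4α list. Among the 1092 HNF4α peaks of the list with this score or a higher one, 34 touched no HDAC3 or PROX1 peak, which is 3.11% (2.24 to 4.32%). This comparison was chosen after the values had been seen. The second HNF4α peak of the gene, in an intron at 3773 bp from the first base, scored 26.4 and was also without HDAC3 and PROX1.

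The *Pklr* promoter peak is shown as the counterpart to the triply bound promoters. Capitals mark an inverted pair of E-box-like half-sites, the form of the carbohydrate response element through which the glucose sensor ChREBP is known to act on this gene. The stretch is mm9 plus strand.
Pklr HNF4α peak, chr3:88940311-88940457: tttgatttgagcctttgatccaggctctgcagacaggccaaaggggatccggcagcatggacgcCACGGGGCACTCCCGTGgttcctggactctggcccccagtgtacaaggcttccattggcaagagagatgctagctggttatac
This element was looked for after the sequence had been read. It was found in 6 of the 24253 HNF4α windows of 200 bp (0.0247%), in 4 of the 20039 co-bound windows and in none of the 67 co-bound windows of the 9 genes. The peak also held a match to the HNF4α consensus with 1 mismatch, GGGCCAGAGTCCA on the minus strand at chr3:88940397-88940409.

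*Slc2a2* encodes GLUT2, the transporter that lets glucose pass in both directions across the hepatocyte membrane. The gene (ENSMUSG00000027690.7) lies at chr3:28596825-28627278 on the plus strand, with 8 co-bound peaks and 1 PROX1-only peak. HNF4α bound 7 of the 8 co-bound peaks. The promoter peak at -54 bp had a score of 40.5, just under the list median. Stronger HNF4α peaks lay in introns, with 86.7 at 8030 bp and 80.6 at 27575 bp past the TSS. The eighth co-bound peak, at 16615 bp, was covered by HNF4α over 49.0% with a score of 82.5. It fell just outside the limit, so with at least 1 bp of overlap all 8 were bound by HNF4α. The gene also had 2 intronic HNF4α peaks without HDAC3 or PROX1, with scores of 34.4 and 27.8.

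*Gys2* encodes liver glycogen synthase and *Pygl* liver glycogen phosphorylase, the enzymes that build and degrade glycogen. Both had 5 co-bound peaks, but HNF4α was placed differently. *Gys2* (ENSMUSG00000030244.7, chr6:142371133-142421629, minus strand) was the one gene of the 9 at which every HDAC3 and PROX1 peak was triply bound, 5 of 5, with no PROX1-only and no HDAC3-only peak. This depended on the limit: 2 of the 5 stayed triply bound with 75% cover by HNF4α, and 3 with HNF4α peaks scored above the median. It also depended on the window: from 100 kb upstream *Gys2* had 7 co-bound peaks, of which 6 were triply bound. Its promoter peak was centred at 6 bp past the TSS with a score of 123.9, higher than 99.5% of the list. A second promoter peak at -516 bp scored 37.7 and an intronic peak at 1868 bp scored 73.5. The remaining 2, at 13619 and 21575 bp, lay in coding exons with scores of 32.5 and 55.1, and they were the only co-bound peaks in coding exons among the 67. *Pygl* (ENSMUSG00000021069.10, chr12:71291798-71332475, minus strand) had 2 triply bound peaks, both upstream of the gene, at -2334 bp with a score of 121.6 and at -3145 bp with 56.1. Its promoter peak at -562 bp was co-bound without HNF4α, and *Pygl* was the one of the 7 genes with a co-bound promoter peak that had no triply bound peak there. Of its 5 peaks inside the gene, 2 were co-bound without HNF4α, 2 PROX1-only, one of them with an HNF4α score of 42.4, and 1 HDAC3-only without HNF4α.

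The upstream peak of *Pygl* is shown because it held the strongest HNF4α site of the gene and lies beyond the promoter. Capitals mark the single match to the HNF4α consensus, with 1 mismatch, and the stretch is the minus strand of mm9.
Pygl peak at -2334 bp, chr12:71334709-71334908: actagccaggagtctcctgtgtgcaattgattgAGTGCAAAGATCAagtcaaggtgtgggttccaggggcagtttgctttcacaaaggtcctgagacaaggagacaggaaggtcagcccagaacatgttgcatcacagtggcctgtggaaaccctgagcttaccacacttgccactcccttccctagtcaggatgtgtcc

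Scores of HNF4α at the 9 genes spanned most of the range of the list. The 41 HNF4α peaks on co-bound peaks scored 23.1 to 125.3 with a median of 52.3, and the median over all such peaks of the list was also 52.3. The 9 on PROX1-only peaks scored 21.2 to 73.0 with a median of 42.4. The 7 without HDAC3 or PROX1 scored 20.7 to 97.1 with a median of 34.4, against 32.5 over the list, and the *Pklr* promoter peak was the highest of the 7. The highest score of each gene ran from 86.7 at *Slc2a2* to 125.3 at *Pck1*, and it was on a triply bound peak at the 8 genes other than *Pklr*.

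**Figure D4:**
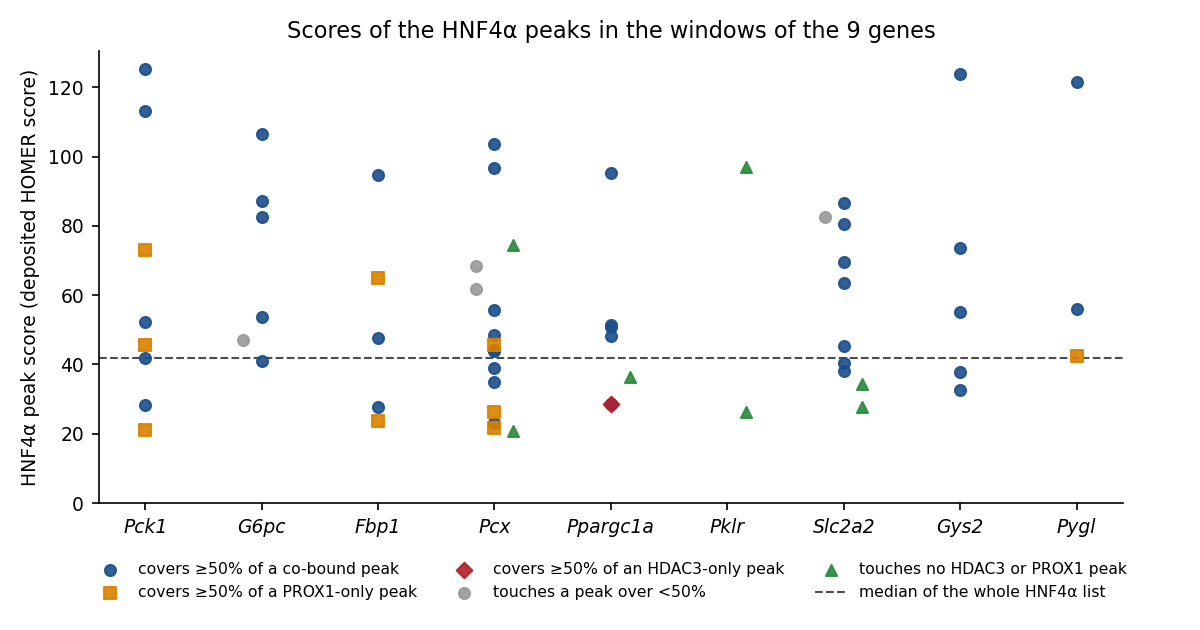
Deposited HNF4α score of each HNF4α peak in the windows of the 9 genes, by what the peak covered, with the median of the whole list (41.9) as a dashed line. Each gene had at least 1 peak well above the median, and at *Pklr* that peak touched no HDAC3 or PROX1 peak.

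The HNF4α consensus occurred in 20 of the 67 co-bound windows of 200 bp, or 29.9% (20.2 to 41.7%), against 31.2% of the list. Among triply bound windows it occurred in 16 of 41 (39.0%) and among co-bound windows without HNF4α in 4 of 26 (15.4%), against 41.4% and 15.1% over the list. With at most 2 mismatches in 200 bp the shares at the 9 genes were thus close to those of the list. With at most 1 mismatch they were not: the consensus was then in 14.9% (8.31 to 25.3%) of the 67 co-bound windows, against 7.15% of the list, and in 22.0% (12.0 to 36.7%) of the triply bound windows, against 10.4%. These shares rest on 10 and 9 windows. The PROX1-only windows had 0 of 18 (0 to 17.6%), an interval that holds the 8.17% of the list. The HDAC3-only windows had 1 of 4 (4.56 to 69.9%), against 2.81%. In windows of 100 bp, with at most 2 mismatches, the consensus was in 20.9% of co-bound windows, against 19.7% of the list. For triply bound windows the share was 24.4%, against 27.2%. For co-bound windows without HNF4α it was 4 of 26 (15.4%, 6.15 to 33.5%), against 7.71%. In windows of 200 bp the stricter core CAAAGTCCA was in none of the 67, against 2.84% of the list. It occurred once, in a PROX1-only peak of *Fbp1*. The C/EBP element TTGCNNAA was in 20 of 67 windows (29.9%), against 26.1%. The E-box CACGTG was in 5 of 67 (7.46%, 3.23 to 16.3%), against 4.01%, and all 5 were triply bound peaks, at *Pcx*, *Slc2a2* and *Gys2*. Over the list its share was 4.01% of co-bound windows both with and without HNF4α. It was also in 2 of the 18 PROX1-only windows, at *Fbp1* and *Pcx*, against 3.09% of the list. The forkhead element TGTTTAC was in 2 of 67 (2.99%), against 8.18%, and the glucocorticoid core ACANNNTGT in 4 of 67 (5.97%), against 9.70%, and those 4 were at *Pck1*, *G6pc* and *Slc2a2*. The DR2 consensus of Rev-erbα, searched by name with at most 3 mismatches, was in 1 of 67, against 1.66% of the list. It was in 1 of the 4 HDAC3-only windows, that of *Ppargc1a* at -24.0 kb, against 7.45% of the list. It was also in 1 of the 18 PROX1-only windows, at *Pck1*, against 0.474% of the list. With at most 2 mismatches it was in none of these windows of the 9 genes, against 2.57% of the HDAC3-only list. A match describes the letters under a peak and does not show that the factor was there.

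Other genes of the pathway were counted by the same rule, and all 45 listed genes were matched to the annotation. Of these 33 had a co-bound peak and 29 a triply bound peak, against 38.4% and 31.1% of all genes. The median was 2 co-bound peaks, between the 0 of all genes and the 7 of the 9 genes. A co-bound peak at the promoter was present at 15 of 45, against 6.25% of all genes, and a PROX1-only peak at 24 of 45, against 25.2%. An HDAC3-only peak was present at 4 of 45, a share near the 7.4% of all genes. The regulators held the most, with a co-bound peak at 10 of 11 and a median of 6. These counts were not divided by window length, so the order of the arms may in part follow gene length, which was not tested. *Gcgr*, the glucagon receptor, and *Insr*, the insulin receptor, had 11 co-bound peaks each, of which 7 and 6 were triply bound. Of the glycolytic genes 10 of 15 had a co-bound peak, with 8 at *Ldha*, lactate dehydrogenase A, and 7 at *Eno1*, an enolase. Of the glycogen genes 8 of 13 had one, with 6 at *Ppp1r3b* and 5 at *Ppp1r3c*, which target protein phosphatase 1 to glycogen. Of the other gluconeogenic genes 5 of 6 had one, with 5 at *Mpc2*, a subunit of the mitochondrial pyruvate carrier. *Fbp2*, the muscle isoenzyme beside *Fbp1*, had 6, and all 6 were also counted at *Fbp1*. The HDAC3-only peaks were at *Slc37a4*, the glucose-6-phosphate transporter, *Gckr*, the glucokinase regulatory protein, and *Gcgr*, with 1 each, and at *Nr3c1*, the glucocorticoid receptor, with 2.

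**Figure D5:**
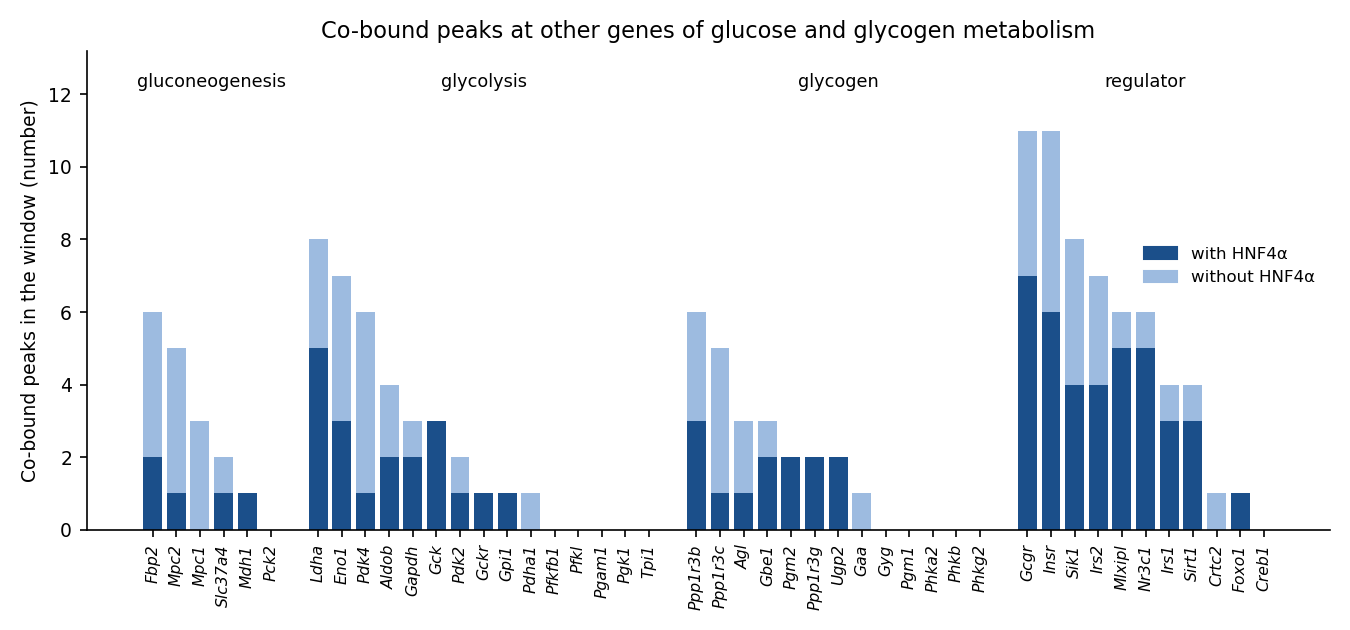
Number of co-bound peaks in the window of each of 45 other genes of glucose and glycogen metabolism, by arm of the pathway, split into peaks with and without HNF4α. *Gcgr* and *Insr* had the most with 11 each, and 12 of the 45 genes had none.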

How the data were processed

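Chromatin immunoprecipitation was profiled for HDAC3 (3 libraries), PROX1 (3) and HNF4α (2). Reads were mapped by the authors to mm9 (Bowtie 0.12.7), duplicates were removed, libraries were pooled, and HOMER called peaks against IgG above limits of reads and enrichment. A shared HDAC3 and PROX1 peak needed less signal of the second factor than a peak listed on its own. The HNF4α list is described as filtered on the knockout. They deposited 1 list per factor. The HDAC3 and PROX1 lists give positions, and the HNF4α list also gives the score that the authors' HOMER run wrote. No list gives reads, so no test, spread or depth was possible, and peaks under the limits are lost.

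Starts were converted to 1-based positions. Genes, exons and TSSs of protein-coding transcripts were taken from GENCODE vM1 on NCBIM37, which is mm9, and sequence was read with pysam 0.24.0 in Python 3.11.15. Motifs were searched on both strands in 200 bp windows on peak centres. Overlap and motif code was tested on simulated data. The 9 genes, the 45 other genes and the motifs were chosen with earlier results of these data known. Named peaks were those within 1 kb of a TSS and the 2 triply bound peaks of each gene with the highest scores, the rest being given as counts or where a sentence singles one out. Alternatives changed overlap, window, assignment, merging and mismatches. Other libraries of the series were not used here. The sequences of some peaks are not reported here.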

Additional observations from a re-analysis of the deposited data

How the results depend on the processing

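With windows from 10 or 100 kb upstream, assignment to the nearest TSS or merging of peaks closer than 1 kb, co-bound peaks numbered 53 to 73, against 67. Demanding 75% cover by HNF4α left 19 triply bound peaks, against 41, and a share of 28.4%, against 32.5% over the whole list, and *Fbp1* and *Pygl* then had none. With HNF4α peaks scored above the median the share was 43.3%, and 8018 of 20039 co-bound peaks of the list were then bound. Triply bound peaks were thus present at 6 to 8 of the 9 genes. With 1 mismatch fewer the HNF4α consensus was in 14.9% of co-bound windows, against 29.9%, while the list share was 7.15%, so the closeness to the list seen with 2 mismatches was lost; the cause was not tested. Of 99 recomputed counts for single genes, 19 moved by over 1.5 times, 7 of them at 75% cover and 6 with the 10 kb window. *Pklr* lost its co-bound peak with the 10 kb window and with the nearest TSS, so 8 of the 9 genes then had one. No paired analysis was possible because the lists are calls on pooled reads. Depth limits what an absent peak shows, and it is unknown from the lists.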
